A study of Mus musculus with 7 samples.

Results

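The 10 genes described here are Trp53, which encodes the transcription factor p53, and 9 genes known as parts of the p53 response or of growth arrest: Mdm2, Cdkn1a, Btg2, Ccng1, Gadd45a, Gadd45b, Bbc3, Bax and Phlda3. They were taken by name, 10 of the 23413 gene rows of the deposited tables, and all 10 had UMIs (unique molecular identifiers, each standing for 1 captured transcript). The tables hold single-cell RNA profiles of the cortices of 7 mouse embryos from 1 litter, made on the Seq-Well platform, which captures cells with barcoded beads in small wells. The study compared embryos that could lose Ash1l, a gene for a histone methyltransferase, from the Emx1 lineage with embryos that could not. The 4 mutant embryos (replicates 10, 11, 12 and 17) were Emx1CreERT2;Ash1lfl/fl, with loxP-flanked Ash1l alleles and a tamoxifen-activated Cre under Emx1 control, which is active in dorsal telencephalic progenitors and their glutamatergic descendants. The 3 control embryos (replicates 14, 15 and 16) were Ash1lfl/fl without the Cre. All 7 shared a dam that was given 100 mg/kg tamoxifen at E10.5, and all were collected at E18.5. No group therefore lacks tamoxifen, and Cre and Ash1l loss cannot be told apart, since the Cre is present in the mutants alone.

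p53 is kept low in unstressed cells because Mdm2, its ubiquitin ligase and also its transcriptional target, marks it for degradation, so its activity is set mainly by protein stability and not by Trp53 transcript. When DNA damage or other stress stabilises it, p53 raises genes that stop the cell cycle (Cdkn1a, Btg2, Ccng1, Gadd45a) and genes that start mitochondrial apoptosis (Bbc3, Bax), and in the developing brain this response removes damaged progenitors. Several of these genes are also used outside that response. Btg2 is a known marker of progenitors about to make neurons, and both Btg2 and Gadd45b can be induced within minutes by growth factor or activity signals, as immediate early genes such as Fos and Egr1 are.

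Of 50191 barcodes 23005 were kept, those with 500 or more genes and no more than 10% mitochondrial UMIs. They came to 2114 to 4285 per embryo, with a median of 1241.5 to 2133 UMIs per cell. A neuron gate (at least 3 distinct neuron markers and more of them than progenitor markers) took 76.9% to 88.3% of the cells of an embryo. A progenitor gate, defined in the mirrored way, took 6.32% to 14.2%. Neurod6, a marker of cortical glutamatergic neurons, stood at 607 ± 93.3 CPM (a gene's UMIs scaled to a common library total, SD, n = 7) in the gate of other glutamatergic neurons. Its level in cycling progenitors was 35.9 ± 21.9 CPM. Neurod6 is itself one of the neuron and glutamatergic markers used for gating, so this contrast follows from the gates and is no check of them. Gates were not pure: the 14 neuron markers summed to 1542 to 2304 CPM in the progenitor gate against 8931 to 11900 in the neuron gate, and doublets were not removed. Libraries shared 24 barcodes. Ash1l itself stood at 155, 154, 164 and 122 CPM in mutant neurons (replicates 10, 11, 12 and 17) and at 163, 214 and 204 CPM in control neurons (14, 15 and 16), the groups overlapping only by mutant 12 and control 14. Its log2 fold change was −0.39 (SE 0.12, adjusted p = 0.301). The part of the gene that the floxed allele removes is not given in the sources used here, so these UMIs do not measure the deletion.

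RefSeq promoters (GRCm38.p6) were available for all 10 genes, 13 promoters in all, and were searched over 250 bases before each start, on both strands, for sites of p53 and of signal-responsive factors. They are shown because the members differ in which of these sites the window holds. The p53 half-site was in 6 of the 13 promoters and in 7.13% of all 32851 promoters of the table. These 6 belong to Trp53, Mdm2, Cdkn1a, Ccng1, Bax and Gadd45a. The Gadd45a match, 40 to 31 bases before the start, is not printed below. A full p53 site, made of 2 half-sites at most 13 bases apart, was in 0.0639% of all promoters and, among these genes, in Cdkn1a alone. The cyclic AMP response element TGACGTCA was in 1.55% of all promoters and, among these genes, in Btg2 alone. The AP-1 site TGANTCA (6.75% of all promoters) and the CArG box of serum response factor (1.47%) were in none of the 13. The windows printed 5′ to 3′ are Cdkn1a at chr17:29090729-29090975 (plus strand), Btg2 at chr1:134079156-134079405 (minus), Mdm2 at chr10:117710915-117710964 (minus), Ccng1 at chr11:40755442-40755491 (minus), Bax at chr7:45467070-45467119 (minus) and Trp53 at chr11:69580264-69580313 (plus). Capitals mark the p53 half-sites in Cdkn1a, Mdm2, Ccng1, Bax and Trp53, and the cyclic AMP response element in Btg2.
Cdkn1a: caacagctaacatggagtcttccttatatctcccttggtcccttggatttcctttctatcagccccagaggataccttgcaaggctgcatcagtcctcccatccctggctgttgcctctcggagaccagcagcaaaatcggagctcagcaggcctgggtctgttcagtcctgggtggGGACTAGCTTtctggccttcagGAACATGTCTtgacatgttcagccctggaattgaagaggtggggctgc
Btg2: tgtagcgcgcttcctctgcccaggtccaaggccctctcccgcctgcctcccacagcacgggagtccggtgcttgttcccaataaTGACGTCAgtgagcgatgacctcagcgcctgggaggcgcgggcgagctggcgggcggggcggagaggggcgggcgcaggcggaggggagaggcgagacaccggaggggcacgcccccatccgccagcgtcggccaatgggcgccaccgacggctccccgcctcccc
Mdm2: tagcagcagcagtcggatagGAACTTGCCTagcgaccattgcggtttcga
Ccng1: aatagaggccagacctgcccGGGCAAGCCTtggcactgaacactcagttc
Bax: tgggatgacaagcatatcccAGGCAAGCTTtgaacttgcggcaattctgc
Trp53: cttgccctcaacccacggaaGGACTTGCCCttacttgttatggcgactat
A match is a run of letters and not a bound site, and these windows leave out sites farther from the start or within the gene.

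The first comparison asked which members differ between progenitors and neurons of the same embryo. Progenitors had more Trp53, Btg2 and Gadd45a transcript, by 1.57, 1.70 and 2.27 times, and neurons had more Bbc3, Cdkn1a and Gadd45b, by 3.44, 1.82 and 1.66 times. Mdm2, Ccng1, Bax and Phlda3 did not pass the test. So 3 of the 10 members were higher and 3 lower in progenitors, where 68.9% of 11358 tested genes differed (34.1% higher, 34.8% lower), a share no smaller than that of the members. At an unadjusted p under 0.05 there were 7 members, 3 of them lower, against 71.1% and 35.9% of genes. All 3 higher members were higher in 7 of 7 embryos, as were 27.1% of genes. The median log2 fold change of the 10 was −0.09, against −0.01 over all genes tested. Levels are given as CPM after TMM scaling (edgeR's correction for composition) within the comparison, so the CPM of 1 gene in 1 embryo shifts slightly from comparison to comparison. In such sums a change in the number of expressing cells and a change in RNA per cell cannot be told apart.

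Trp53 (chr11:69580359-69591873, mm10) ranged from 89.6 to 115 CPM in the progenitor gate (median 91.9) and from 50.3 to 65.9 CPM in the neuron gate (median 63.5). It was higher in progenitors in 7 of 7 embryos, the lowest progenitor value lying above the highest neuron value. Its log2 fold change was 0.65 (SE 0.08, adjusted p = 3.39e-08). Mdm2 (chr10:117688875-117710758), the main brake on p53 protein, ranged from 69.0 to 102 CPM in progenitors (median 87.5) and from 78.3 to 115 CPM in neurons (median 89.0). It was higher in progenitors in 3 of 7 embryos, and its log2 fold change of −0.16 (SE 0.09, adjusted p = 0.0985) did not pass.

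Among the arrest genes, Cdkn1a, Btg2 and Gadd45a did not share a direction. Cdkn1a (chr17:29090976-29100727), the p21 inhibitor of cyclin-dependent kinases, ranged from 3.15 to 9.40 CPM in progenitors (median 7.05) and from 9.78 to 19.2 CPM in neurons (median 10.8). Every progenitor value lay under every neuron value, with a log2 fold change of −0.86 (SE 0.24, adjusted p = 0.00188), though the progenitor sums of all 7 embryos held only 37 Cdkn1a UMIs. Btg2 (chr1:134075170-134079120), an antiproliferative regulator of mRNA decay, ranged from 57.5 to 103 CPM in progenitors (median 88.2) and from 38.3 to 63.0 CPM in neurons (median 47.5). It was higher in progenitors in 7 of 7 embryos although the ranges met, with a log2 fold change of 0.76 (SE 0.11, adjusted p = 3.46e-07). Gadd45a (chr6:67035096-67037457), a stress protein of the growth arrest and DNA damage family, ranged from 13.8 to 34.8 CPM in progenitors (median 23.5) and from 5.98 to 15.2 CPM in neurons (median 10.53). It was also higher in progenitors in 7 of 7 embryos, and its log2 fold change of 1.18 (SE 0.19, adjusted p = 1.32e-06) was the largest rise among the members.

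Its paralogue Gadd45b (chr10:80930073-80932204) went the other way. It ranged from 18.4 to 42.9 CPM in progenitors (median 32.2) and from 28.6 to 87.8 CPM in neurons (median 44.9), lower in progenitors in 7 of 7 embryos. The log2 fold change was −0.73 (SE 0.13, adjusted p = 6.62e-06). Ccng1 (chr11:40748552-40755311), an atypical cyclin that recruits a phosphatase to Mdm2, ranged from 18.4 to 49.1 CPM in progenitors and from 33.1 to 39.8 CPM in neurons. It was higher in progenitors in 4 of 7 embryos, with a log2 fold change of −0.05 (SE 0.14, adjusted p = 0.761).

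Of the apoptosis genes 1 passed and 1 did not. Bbc3 (chr7:16308393-16318205), which encodes the BH3-only killer PUMA, ranged from 3.07 to 20.9 CPM in progenitors (median 9.40) and from 29.0 to 70.4 CPM in neurons (median 35.7). The gates did not overlap, and the log2 fold change of −1.78 (SE 0.18, adjusted p = 1.72e-10) was the widest of the 10. Bax (chr7:45461697-45466898), the pore-forming executor that PUMA activates, ranged from 75.5 to 108 CPM in progenitors and from 77.1 to 145 CPM in neurons, with a log2 fold change of −0.13 (SE 0.08, adjusted p = 0.171). Control 14 and mutant 17 had the highest Bax in both gates. Phlda3 (chr1:135766119-135769136), an inhibitor of Akt signalling, had 34 UMIs in all progenitor sums and 157 in all neuron sums. Its medians were 6.91 and 3.995 CPM, and the log2 fold change of 0.65 (SE 0.32, adjusted p = 0.0676) did not pass. Without control 14 it did (0.80, adjusted p = 0.0262). Bax and Mdm2 passed without the filter on low counts (adjusted p = 0.00678 and 0.00261), and Bax also with a mitochondrial share of at most 5% (adjusted p = 0.0115).

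**Figure D1:**
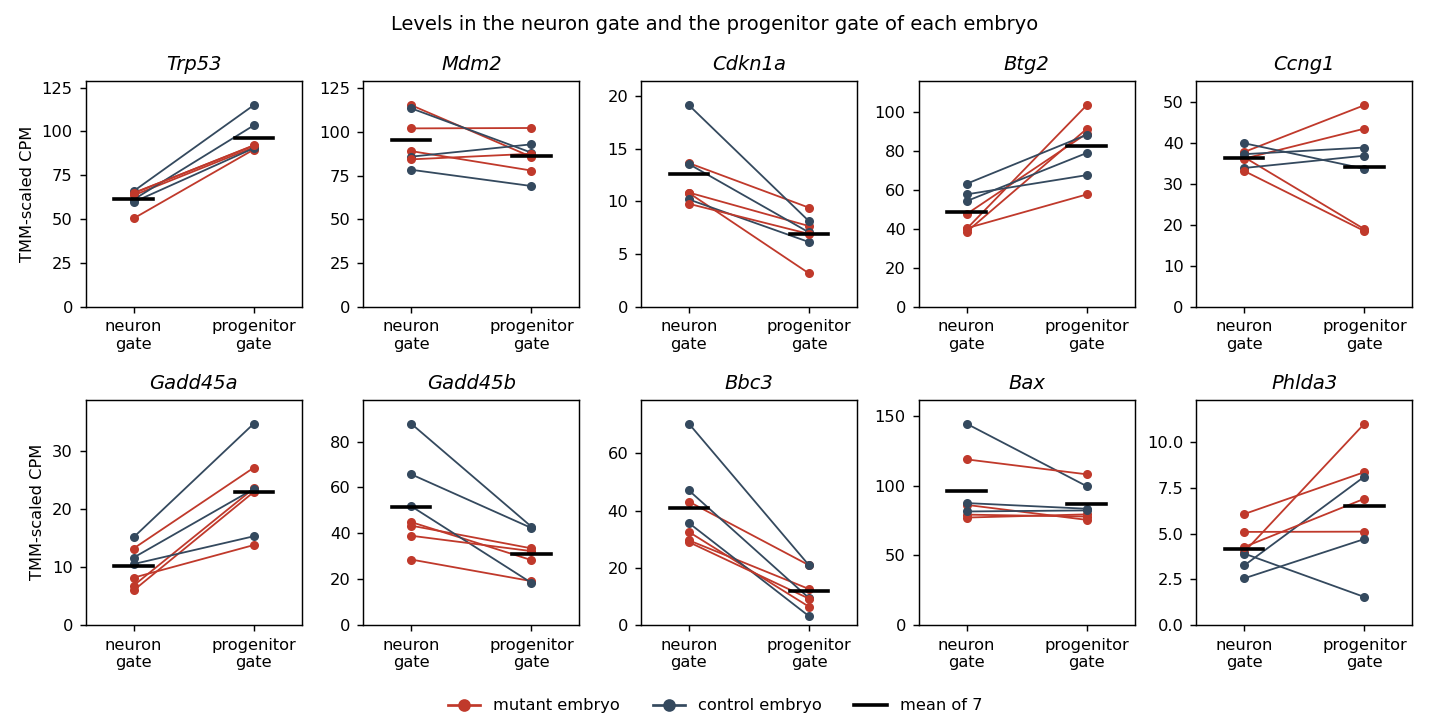
TMM-scaled CPM of the 10 genes in the neuron gate and the progenitor gate, with 1 line per embryo (4 mutants red, 3 controls dark) and a black bar at the mean of 7. All 7 lines rise towards progenitors for Trp53, Btg2 and Gadd45a and all 7 fall for Cdkn1a, Bbc3 and Gadd45b.

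The other genes of the pathway were likewise divided between the gates. Of 24 listed p53 targets, 19 were tested, of which 7 were higher and 7 lower in progenitors (median log2 fold change −0.23). Gtse1, a G2 regulator that restrains p53, and Rps27l, a ribosomal protein homologue, were higher by 3.66 and 1.01 on the log2 scale. Plk2, a polo-like kinase, was lower (−1.67). Of 12 regulators of p53, 10 were tested, 3 higher and 4 lower, with the checkpoint kinases Chek1 and Chek2 higher (2.61 and 2.80) and Trp73, the p53 relative of Cajal-Retzius neurons, lower (−3.98). Of 12 other arrest genes, 10 were tested, 6 higher and 2 lower, and the largest were Cdkn2c (3.53) and Gas1 (3.17) in progenitors and Cdkn1c (−1.96) in neurons. Of 12 other apoptosis genes, 11 were tested, 4 higher and 5 lower, with Bcl2 higher (1.74). Of 18 immediate early genes, 16 were tested, 8 higher and 6 lower, including Cyr61 higher (3.16) and Npas4 lower (−3.35). Every list thus held called members in both directions.

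Finer marker gates placed the levels along the lineage, here as plain CPM without TMM scaling (n = 7, SD). Trp53 was highest in cycling progenitors (101 ± 17.3 CPM), followed by radial glia (80.1 ± 17.3) and intermediate progenitors (78.8 ± 8.12), and was lowest in deep-layer neurons (52.1 ± 7.07). Only the step from intermediate progenitors to upper-layer neurons (62.1 ± 10.4) had the same sign in 7 of 7 embryos, and neighbours below it differed by less than their spread. Btg2 was highest in radial glia (84.0 ± 30.4) and intermediate progenitors (80.0 ± 11.3), then in cycling progenitors (65.6 ± 15.6), and was lowest in deep-layer neurons (35.8 ± 3.20). The radial glia value spread from 47.8 to 118 CPM over embryos, and its order against intermediate progenitors held in 4 of 7. The intermediate progenitor gate took cells before the other 6 gates and did not require the progenitor gate. It carried 447 ± 59.8 CPM of Neurod6 and 1112 ± 257 CPM of the neuronal Stmn2 beside 281 ± 80.9 CPM of Eomes. The proliferation marker Mki67 stood at 167 ± 31.5 CPM there, against 1487 ± 138 in cycling progenitors. It is thus a mixed gate with many neuronal transcripts and not one of progenitors alone.

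Bbc3 was low in the gates of cycling progenitors and radial glia. It was 8.60 ± 3.22 CPM in cycling progenitors and 15.0 ± 12.98 CPM in radial glia, against 32.3 ± 19.2 in interneurons, 35.2 ± 13.9 in intermediate progenitors, 39.5 ± 8.00 in deep-layer, 42.1 ± 19.4 in upper-layer and 43.2 ± 13.7 in other glutamatergic neurons. Among those last 5 gates no neighbouring pair differed beyond its spread. Gadd45b was highest in deep-layer neurons (63.3 ± 23.2) and lowest in cycling progenitors (24.6 ± 13.8). Intermediate progenitors (54.5 ± 17.4) exceeded upper-layer neurons (40.0 ± 18.498) in 7 of 7 embryos. Radial glia (38.3 ± 19.1) were close to upper-layer neurons and to interneurons (39.6 ± 19.6), and interneurons exceeded radial glia in 4 of 7 embryos. The lower Gadd45b of the progenitor gate was thus not seen against every neuron gate in radial glia. Gadd45a had its top level in the mixed intermediate progenitor gate (20.7 ± 5.58) and its lowest in upper-layer neurons (5.96 ± 3.06). Cdkn1a lay between 5.42 ± 4.38 CPM in radial glia and 15.6 ± 9.27 CPM in other glutamatergic neurons, and interneurons (15.2 ± 3.67) exceeded cycling progenitors (10.4 ± 5.21) in 6 of 7 embryos. Cycling progenitors in turn had a higher mean than intermediate progenitors (9.39 ± 5.74), upper-layer neurons (9.22 ± 1.99) and deep-layer neurons (8.26 ± 2.98), by less than the spread, so the finer gates did not all follow the order of the neuron and progenitor gates.

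Mdm2 ranged from 71.8 ± 15.5 CPM in deep-layer neurons to 108 ± 19.3 in intermediate progenitors, and each step in its order was smaller than the SD of that step over embryos. Bax ranged only from 84.4 ± 15.2 to 96.5 ± 22.3 CPM. Ccng1 ranged from 29.0 ± 10.1 in interneurons to 45.2 ± 17.1 in radial glia, and intermediate progenitors (36.7 ± 3.94) exceeded upper-layer neurons (29.2 ± 4.25) in 6 of 7 embryos. Phlda3 ran from 3.36 ± 2.00 CPM in intermediate progenitors to 7.23 ± 6.66 in cycling progenitors, an SD close to its mean there. Levels of different genes are not set against each other here, since a 3′ count carries no correction for gene-specific capture.

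**Figure D2:**
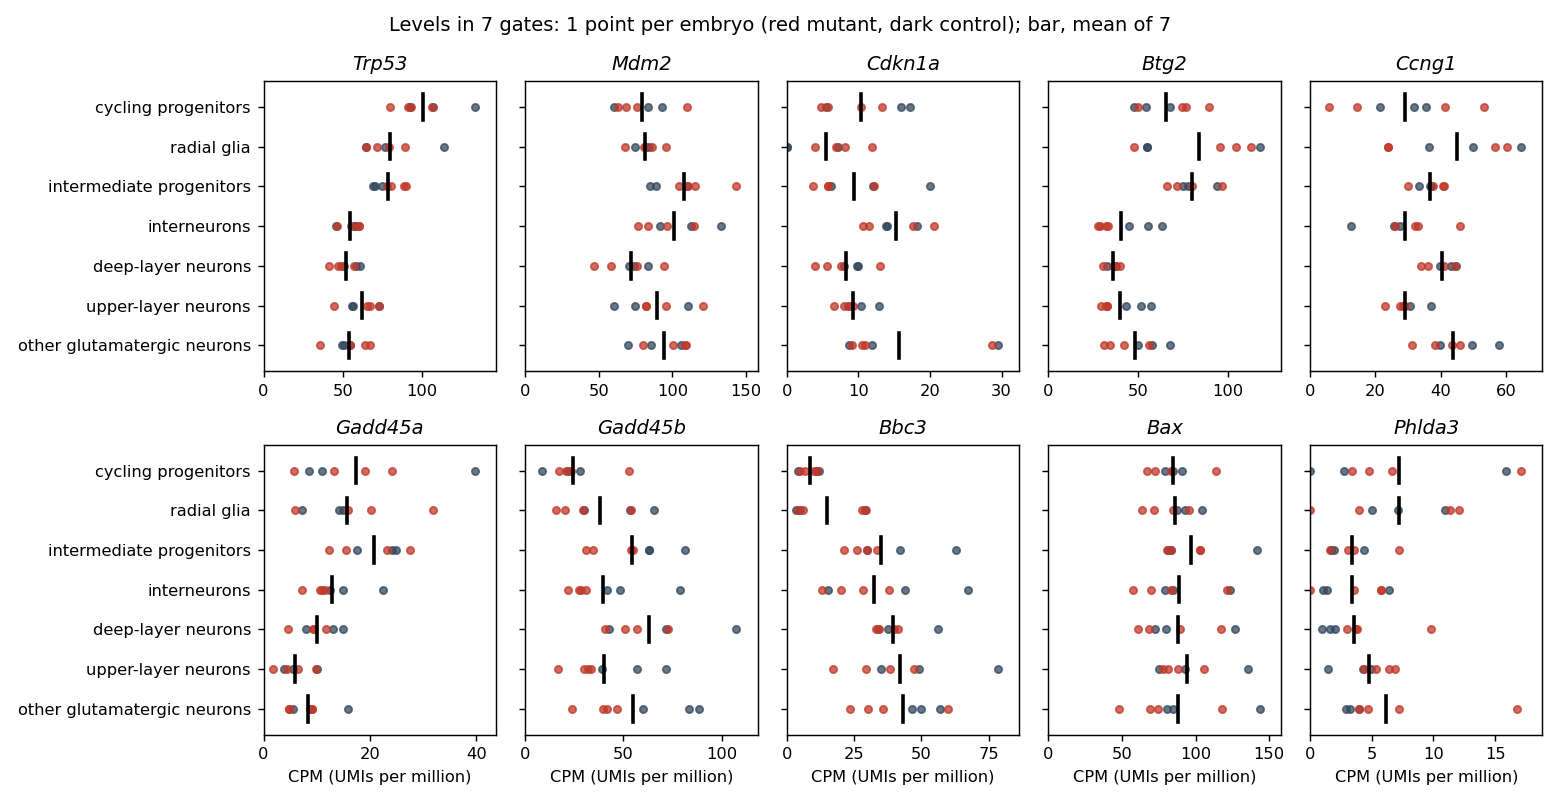
Plain CPM of each gene in 7 marker gates, with 1 point per embryo (4 mutants red, 3 controls dark) and a bar at the mean of 7; each panel has its own axis. Trp53 and Btg2 have their highest means in cycling progenitors, radial glia and the mixed intermediate progenitor gate. Bbc3 is lowest in cycling progenitors and radial glia, and Bax is nearly level.

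The second comparison asked whether any member differed with genotype. With the settings used throughout, edgeR called none of those tested in all kept cells, neurons, glutamatergic neurons or progenitors; the finer gates were not tested. Gadd45b and Btg2 lay lower in the neurons of all 4 mutants than in those of all 3 controls, and Phlda3 lay higher. These 2 downward and 1 upward separations among 10 genes stand beside 5.4% and 4.75% of all 12436 genes tested, 10.1% in all. In neurons 0 of 10 members were called, where 0.0402% of genes were. At an unadjusted p under 0.05 there were 4 members, all lower in mutants, against 10.7% of all genes (5.63% lower). DESeq2 called 1 member, Gadd45b, and 0.145% of genes. The median log2 fold change over the 10 members was −0.29, against −0.0011 over all genes.

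Gadd45b stood at 49.8, 63.2 and 84.2 CPM in the neurons of controls 14, 15 and 16, and at 27.1, 42.9, 41.3 and 37.6 CPM in mutants 10, 11, 12 and 17. Control 16 was highest and mutant 10 lowest, and the highest mutant lay under the lowest control. The log2 fold change was −0.83 (SE 0.18), a 1.77-fold lower level whose adjusted p of 0.212 did not pass. It passed by DESeq2 (adjusted p = 0.00757), without the filter on low counts (adjusted p = 1.77e-06) and without control 14 (adjusted p = 0.0447). Over all 16 alternatives the adjusted p ran from 1.77e-06 to 0.961.

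Btg2 stood at 55.4, 60.6 and 51.9 CPM in control neurons and at 37.9, 36.6, 45.2 and 38.8 CPM in mutant neurons, in the same order of embryos. The mutants lay close together and under all controls. The log2 fold change was −0.50 (SE 0.12, adjusted p = 0.286), and it passed only without the filter on low counts (adjusted p = 0.0374). Phlda3 stood at 3.76, 2.45 and 3.12 CPM in control neurons and at 4.84, 3.81, 5.78 and 4.12 CPM in mutant neurons. The groups did not overlap, but the values rest on 65 UMIs in controls and 92 in mutants, and the log2 fold change was 0.57 (SE 0.29, adjusted p = 0.493).

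Bbc3 stood at 34.3, 45.2 and 67.5 CPM in control neurons and at 30.9, 28.3, 41.1 and 27.98 CPM in mutant neurons. Mutant 12 lay above control 14, so the groups overlapped. The log2 fold change of −0.62 (SE 0.20, adjusted p = 0.317) passed only without the filter (adjusted p = 0.00414). Gadd45a stood at 10.1, 11.2 and 14.5 CPM in controls and at 5.68, 6.51, 12.6 and 7.90 CPM in mutants, overlapping through mutant 12 (log2 fold change −0.55, SE 0.25, adjusted p = 0.457). Cdkn1a stood at 9.81, 13.03 and 18.4 CPM in controls and at 10.3, 10.3, 13.01 and 9.44 CPM in mutants, with a log2 fold change of −0.37 (SE 0.22, adjusted p = 0.567). For these 3 genes control 16 had the highest level of all 7 embryos.

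Trp53, its brake and the remaining targets were near level. The log2 fold changes were −0.04 for Trp53 (SE 0.12), 0.07 for Mdm2 (SE 0.14), −0.06 for Ccng1 (SE 0.12) and −0.21 for Bax (SE 0.19), with adjusted p from 0.721 to 0.943. Trp53 was 59.8 ± 3.25 CPM in controls (n = 3) and 58.2 ± 6.81 CPM in mutants (n = 4), and Mdm2 was 88.9 ± 17.6 and 93.3 ± 13.01 CPM. Both pairs overlapped widely. The 2 high Bax values, 139 CPM in control 14 and 115 CPM in mutant 17, fell in different groups, and without control 14 the sign of its fold change turned (0.09).

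**Figure D3:**
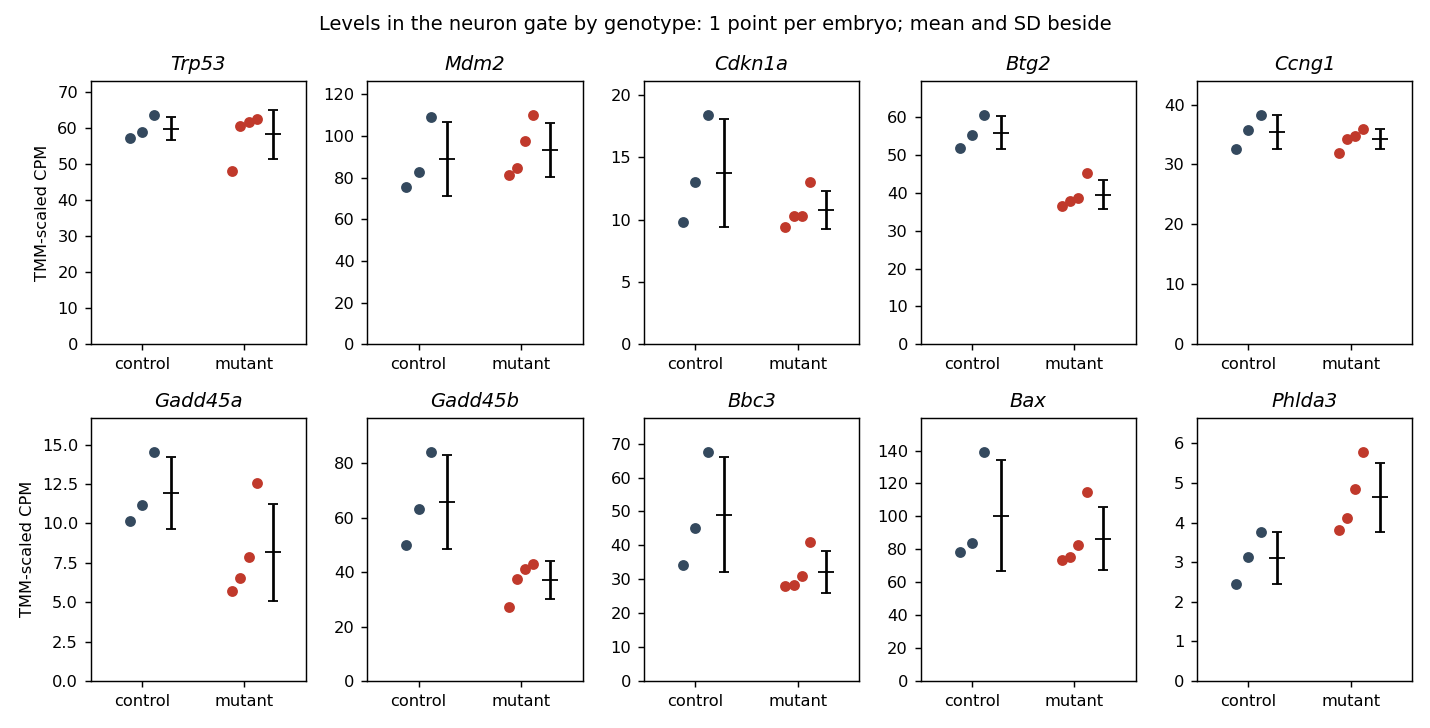
TMM-scaled CPM of the 10 genes in the neuron gate of each control and mutant embryo (1 point each), with the group mean and SD beside the points. Btg2 (36.6 to 45.2 CPM in mutants, 51.9 to 60.6 in controls) and Gadd45b (27.1 to 42.9 and 49.8 to 84.2) do not overlap downwards, and Phlda3 does not overlap upwards.

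Several measures moved beside these values. The 18 immediate early genes summed to 2337 ± 238 CPM in mutant neurons and 2887 ± 314 CPM in control neurons (exact two-sided permutation p = 0.0857), the ranges overlapping (2040 to 2597 against 2592 to 3216). The 14 neuron markers summed to 10363 ± 974 and 11698 ± 185 CPM (exact permutation p = 0.0571) and the 10 glutamatergic markers to 1599 ± 38.8 and 1790 ± 117 CPM (exact permutation p = 0.0286, the smallest that 35 splits can give), both without overlap. The median mitochondrial share was 3.497% to 4.37% in mutants and 4.14% to 5.69% in controls. Markers of microglia (1.82 to 10.2 CPM), endothelium (5.72 to 21.6) and meninges (6.83 to 31.4) were near 0 in the neuron gate of both groups, with overlapping ranges, while haemoglobin and other erythroid genes summed to 1075 to 2878 CPM, also overlapping. The part of these differences in the Gadd45b and Btg2 values was not tested.

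Within glutamatergic neurons, the lineage of the Emx1 Cre, 0 of 10 members were called (0.0428% of 11692 genes) by edgeR, 3 had an unadjusted p under 0.05, as 11% of genes did, and DESeq2 called 1, Gadd45b (adjusted p = 0.0275), and 0.257% of genes. The log2 fold changes were −0.78 for Gadd45b (SE 0.18, adjusted p = 0.192; 0.0243 without control 14) and −0.43 for Btg2 (SE 0.13, adjusted p = 0.286), with no overlap of groups for either, where 5.55% of genes lay lower in all mutants. In interneurons, which arise outside the Emx1 lineage, Gadd45b was 21.6, 30.7, 27.5 and 28.5 plain CPM in mutants 10, 11, 12 and 17 and 41.5, 48.3 and 78.9 in controls 14, 15 and 16. Btg2 was 27.4, 28.5, 33.2 and 32.1 in those mutants and 55.4, 63.3 and 44.8 in those controls. With Gadd45a, 3 of 9 members measured in every embryo lay lower in all mutant interneurons than in control ones, beside 3.79% of 10844 genes. These interneuron sums held 13 to 74 UMIs of Btg2 or Gadd45b each. In upper-layer neurons Btg2 and Gadd45b also did not overlap (Btg2 31.6 ± 1.56 against 50.6 ± 6.89, Gadd45b 28.04 ± 7.67 against 56.0 ± 16.3 plain CPM, mutants against controls), 2 of 10 members beside 4.23% of genes. In intermediate progenitors Gadd45b lay lower in all mutants (43.6 ± 12.5 against 69.2 ± 10.7, 1 of 10 members beside 4.65% of genes) and Trp53 higher (84.2 ± 5.86 against 71.6 ± 3.01, beside 4.67%). In other glutamatergic neurons 1 of 10 members lay lower in all mutants, Gadd45b (38.0 ± 9.89 against 77.2 ± 15.3 plain CPM, beside 3.11% of genes). In deep-layer neurons 1 of 10 lay higher, Phlda3 (5.08 ± 3.17 against 1.54 ± 0.50, beside 3.55%), on 18 UMIs in all embryos together. Btg2 means were close in deep-layer neurons (35.8 ± 4.04 against 35.7 ± 2.49), and it overlapped in other glutamatergic neurons (40.9 ± 11.1 against 58.4 ± 9.09) and intermediate progenitors (78.5 ± 13.4 against 82.1 ± 10.3). Gadd45b overlapped in deep-layer neurons (55.3 ± 13.3 against 74.0 ± 32.4). In radial glia 0 of the 8 members measured in every embryo lay apart, and in cycling progenitors 0 of 9. The share over all genes is not given for these gates. Their sums could be small: Bbc3 had 32 UMIs in radial glia and 16 in cycling progenitors over all embryos.

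In the progenitor gate no member lay apart by genotype, where 6.54% of genes did. Btg2 stood at 71.7, 91.7 and 83.9 CPM in controls 14, 15 and 16 and at 108, 96.1, 93.3 and 60.7 CPM in mutants 10, 11, 12 and 17. Mutants 10, 11 and 12 were above all controls and mutant 17 below them, with a log2 fold change of 0.14 (SE 0.20, adjusted p = 0.934). Gadd45b stood at 19.6, 44.0 and 45.6 CPM in controls and at 20.1, 29.8, 35.1 and 34.0 CPM in mutants, a log2 fold change of −0.34 (SE 0.29, adjusted p = 0.868) with overlap. Of the 8 members tested in progenitors 0 were called by edgeR (0.0106% of 9461 genes), by DESeq2 (0.0211%) or at an unadjusted p under 0.05, which 6.46% of genes had. Cdkn1a and Phlda3 fell under the filter on low counts. Over all kept cells 0 of 10 members were called by edgeR (0.0233% of genes), 4 had an unadjusted p under 0.05, as did 1350 of the 12893 genes, and DESeq2 called 1, Gadd45b (−0.74, adjusted p = 0.0201), and 0.163% of genes. There Btg2 (42.2 to 53.9 CPM in mutants, 55.8 to 64.4 in controls) and Gadd45b (29.7 to 43.8 and 49.5 to 82.3) again lay lower, and Phlda3 (4.13 to 6.82 and 2.63 to 3.68) higher, without overlap. These 3 of 10 stand beside 9.79% of genes, and the cells are largely those of the neuron gate.

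The difference between the genotype effects in progenitors and neurons was tested as an interaction. It was 0.62 for Btg2 on the log2 scale (SE 0.19, adjusted p = 0.635), 0.74 for Bbc3 (SE 0.40, adjusted p = 0.964) and 0.50 for Gadd45b (SE 0.26, adjusted p = 0.964). Of the members 0 were called (0.0326% of 12264 genes) by edgeR or DESeq2, and Btg2 was the single one with an unadjusted p under 0.05, as 5.23% of genes had. All 4 genes that edgeR called in this interaction belonged to the immediate early list: Atf3 (1.28, adjusted p = 0.0257), Ier2 (0.71, 0.0257), Egr1 (0.85, 0.0257) and Fos (0.60, 0.0260), transcription factors or regulators that cells switch on within minutes of a stimulus. DESeq2 called 0 genes in the interaction, and without mutant 11 none of the 4 passed by edgeR (adjusted p from 0.134 to 0.167). In neurons alone Atf3 fell, from 35.04 ± 13.2 CPM in controls to 12.9 ± 2.14 CPM in mutants (log2 fold change −1.45, SE 0.23, adjusted p = 0.0304). This call was lost when any embryo other than control 14 was left out (adjusted p from 0.0587 to 0.318). Egr1 stood at 126 ± 39.7 and 91.2 ± 16.2 CPM.

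The other lists held few genotype calls. In neurons the p53 targets (20 tested), p53 regulators (10), arrest genes (10) and apoptosis genes (11) had 0 calls by edgeR. At an unadjusted p under 0.05 they held 1, 1, 2 and 2 genes. Their median log2 fold changes were 0.04, 0.13, −0.03 and −0.05. The immediate early list had 1 call among 17 tested, Atf3, and 10 of its members had an unadjusted p under 0.05, 8 of them lower and 2 higher (Fosb and Arc), beside 10.7% of all genes and 5.63% lower. The 12 p53 regulators summed to 824 ± 55.3 CPM in mutant neurons and 732 ± 20.2 in control neurons without overlap (exact permutation p = 0.0571), and the 22 measured p53 targets to 794 ± 36.8 and 775 ± 80.0 CPM with overlap (exact permutation p = 0.686).

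To separate members that go with immediate early genes from members that go with the p53 programme, neurons of each embryo were split in 2 ways that used none of the 10 genes. In the first, cells with UMIs of at least 2 immediate early genes were set against cells with 0. Btg2 and Gadd45b were 1.96 and 2.07 times higher in the cells with immediate early UMIs, and none of the other 7 tested members passed. This was 2 of 9 members called higher, beside 1.32% of 10387 genes called higher (3.01% in either direction), a count that includes the genes used for the split.

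Btg2 stood at 59.4, 66.2 and 55.8 CPM in the immediate early positive neurons of controls 14, 15 and 16 and at 42.1, 40.7, 51.5 and 40.0 CPM in those of mutants 10, 11, 12 and 17. In the cells without such UMIs it was 27.7, 20.9 and 30.0 CPM in controls and 13.4, 26.5, 19.8 and 37.4 CPM in mutants. Every embryo was higher in the positive cells, mutant 17 by the least, and the log2 fold change was 0.97 (SE 0.17, adjusted p = 0.000109). Gadd45b stood at 54.7, 68.2 and 94.3 CPM in positive control cells and at 28.9, 48.2, 46.5 and 38.8 CPM in positive mutant cells. It was 16.6, 37.1 and 24.0 CPM in control cells without immediate early UMIs and 13.4, 31.8, 19.8 and 39.7 CPM in such mutant cells. The exception among the 7 was mutant 17, and the log2 fold change was 1.05 (SE 0.18, adjusted p = 4.85e-05). The sums of cells without immediate early UMIs held 72 Btg2 and 75 Gadd45b UMIs over all embryos.

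The other 7 ranged from −0.20 (Ccng1, SE 0.16, adjusted p = 0.689) through 0.09 (Cdkn1a, SE 0.30) to 0.25 (Bbc3, SE 0.17, adjusted p = 0.589), and Trp53 and Bax were at −0.01 and −0.0031. Gadd45a, the paralogue of Gadd45b, was at 0.17 (SE 0.33, adjusted p = 0.914). Phlda3 was too low to be tested. Positive cells were deeper, with a median of 1493 to 2573 UMIs per embryo against 944 to 1382.5. With every cell thinned to 1000 UMIs, Btg2 was at 1.01 (adjusted p = 0.000216) and Gadd45b at 0.87 (adjusted p = 0.000369). Gadd45b lost its call when the embryo was left out as a block (1.02, adjusted p = 0.142). Other arrest genes that were higher in positive cells were Gas1 (1.63, adjusted p = 0.00122) and Btg1 (0.57, adjusted p = 0.0402), 2 of 10 tested. Among p53 targets 1 of 14 was higher, Plk2 (0.34, adjusted p = 0.00202), and among apoptosis genes 1 of 11, Mcl1 (0.31, adjusted p = 0.0168).

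**Figure D4:**
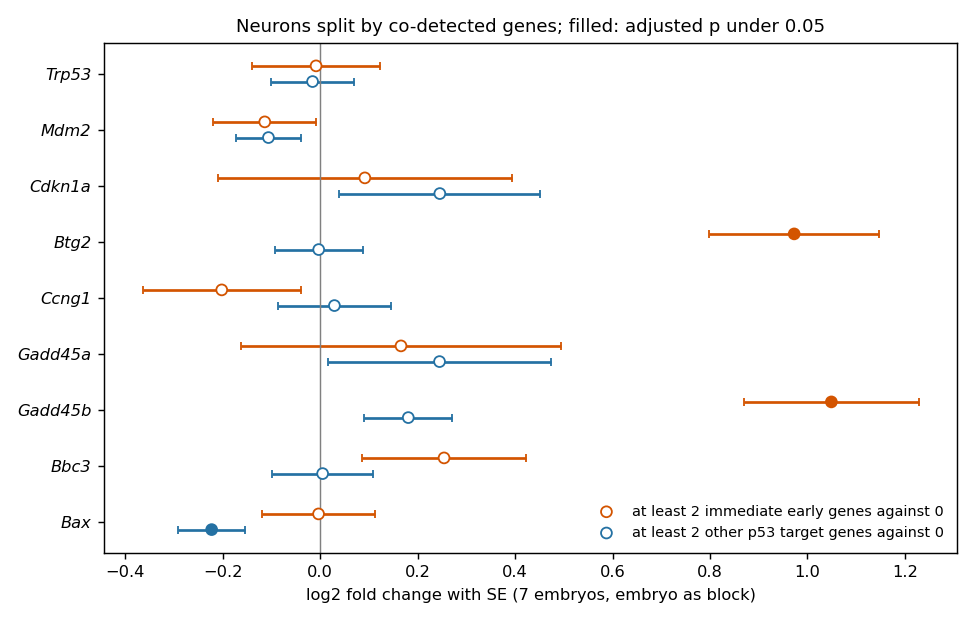
Log2 fold change with SE of 9 members between neurons with at least 2 genes of a list and neurons with 0, for immediate early genes (orange) and for other p53 targets (blue), over 7 embryos; filled points passed an adjusted p under 0.05. Btg2 (0.97) and Gadd45b (1.05) stand apart in the first split and Bax (−0.22) is the single filled point in the second.

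Both genes had higher mean levels in cells with more immediate early genes, apart from Btg2 between 1 and 2. Among neurons thinned to 1000 UMIs, Btg2 was 24.6 ± 8.26 CPM (SD, n = 7) in cells with 0 immediate early genes, 42.6 ± 12.1 with 1, 41.6 ± 8.99 with 2, 56.9 ± 22.1 with 3 and 65.0 ± 20.2 with 4 or more. Gadd45b went from 31.7 ± 9.98 through 39.8 ± 16.7, 47.8 ± 18.6 and 58.9 ± 17.2 to 75.2 ± 32.9 CPM. Cdkn1a (9.62 ± 7.06 with 0, 12.6 ± 11.2 with 4 or more) and Mdm2 (97.1 ± 27.7 and 103 ± 23.3) stayed within their spread. Bbc3 was 36.8 ± 12.9 and 51.7 ± 19.1 CPM in those end classes, and Bax was 101 ± 30.7 and 70.0 ± 23.8 CPM. The classes held 1648 to 3834 cells over the 7 embryos, and neither the classes nor their order was tested.

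**Figure D5:**
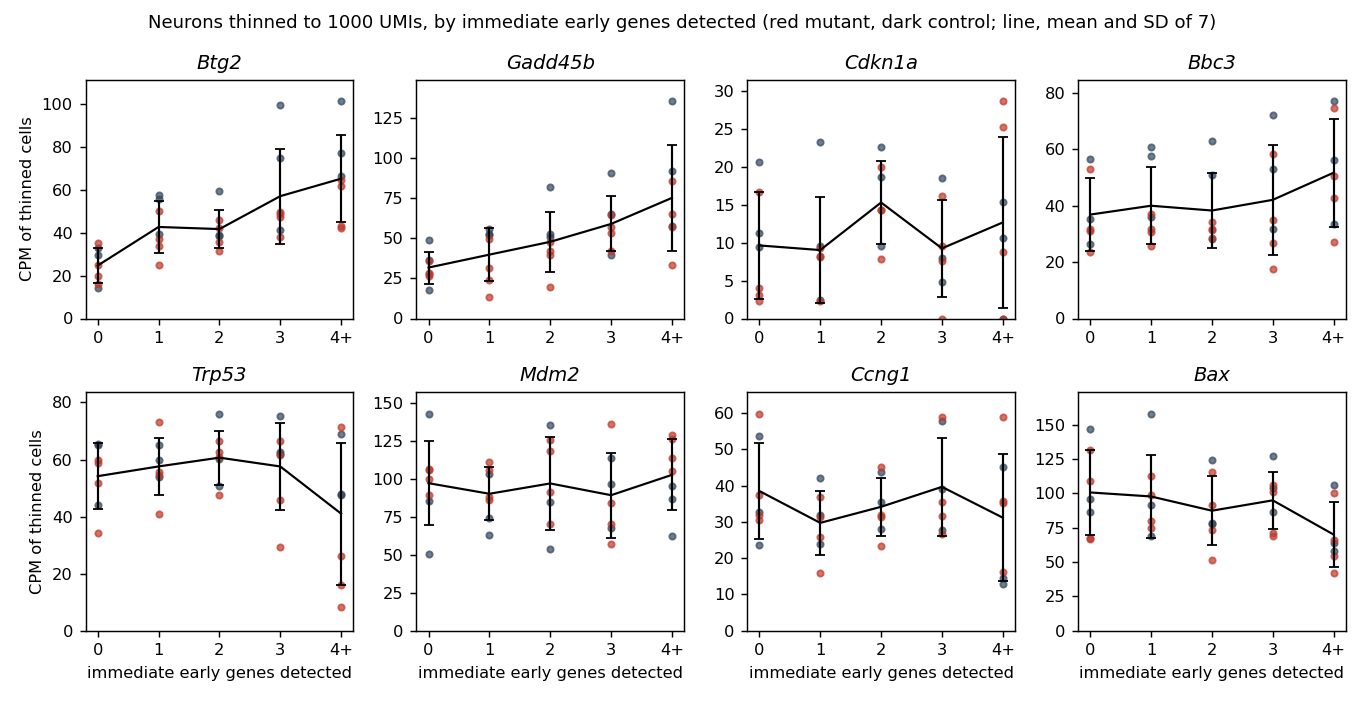
CPM of 8 members in neurons thinned to 1000 UMIs, by the number of immediate early genes detected in the cell, with 1 point per embryo (4 mutants red, 3 controls dark) and a line with SD for the mean of 7. Btg2 goes from 24.6 to 65.0 CPM and Gadd45b from 31.7 to 75.2 CPM across the 5 classes.

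The genotype comparison was also made on each side of the immediate early split. In neurons without immediate early UMIs the log2 fold change between mutants and controls was 0.09 for Gadd45b (adjusted p = 0.961) and −0.02 for Btg2 (adjusted p = 0.994). The groups overlapped for both, and these sums held few UMIs of either gene, as given above. In neurons with at least 2 immediate early genes the log2 fold change was −0.85 for Gadd45b (adjusted p = 0.297) and −0.47 for Btg2 (adjusted p = 0.320). The difference of these effects, tested as an interaction, was −0.91 for Gadd45b (SE 0.37, adjusted p = 0.418) and −0.44 for Btg2 (SE 0.37, adjusted p = 0.837). Neither passed, and 0 of 10 members were called (0.316% of 11059 genes) by edgeR, 1 having an unadjusted p under 0.05, as 8.02% of genes had. This interaction was added after the values had been seen. The share of neurons with at least 2 immediate early genes was 65.3% ± 2.69 in mutants (62.9% to 69.0%) and 72.2% ± 1.596 in controls (70.5% to 73.6%), without overlap (exact two-sided permutation p = 0.0571). At 1000 UMIs per cell it was 50.9% ± 3.35 and 57.4% ± 4.99 with overlap (exact permutation p = 0.143). In the thinned classes, mean Gadd45b CPM in mutants against controls was 29.7 against 34.5 with 0 immediate early genes and 29.5 against 53.5 with 1. With 2, 3 and 4 or more it was 37.3 against 61.8, 54.3 against 65.2 and 60.3 against 95.0. Mean Btg2 was 24.0 against 25.4, 36.5 against 50.7, 38.7 against 45.5, 45.8 against 71.7 and 52.7 against 81.5. Genotype was not tested within these classes.

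The second split set neurons with at least 2 other p53 targets against neurons with 0. Of 9 members tested, 1 was called, Bax, beside 5.44% of 10287 genes (2.33% lower), and it was lower and not higher in the cells with p53 target UMIs. Bax was lower in 7 of 7 embryos, from 68.0 to 134 CPM (median 77.5) against 83.8 to 152 CPM (median 93.0), with a log2 fold change of −0.22 (SE 0.07, adjusted p = 0.0391). Mutant 11 had the widest gap, 68.0 against 111 CPM, and without it the adjusted p was 0.217. The call was also lost without mutant 10 or 12 or without control 14, 15 or 16 (adjusted p from 0.0581 to 0.0690), and in all it was lost under 13 of 16 alternatives. The difference was −0.03 at 1000 UMIs per cell (adjusted p = 1.000), where 22 genes were called in place of 560, and it also missed the threshold by DESeq2 (adjusted p = 0.273). Cells with p53 target UMIs had a median of 1994.5 to 4196 UMIs against 997.5 to 1278.

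The other 8 tested members did not pass in this split, the classical p53 targets Cdkn1a and Mdm2 among them. Cdkn1a was 0.25 (SE 0.21, adjusted p = 0.598), higher in 6 of 7 embryos, and Mdm2 was −0.11 (SE 0.07, adjusted p = 0.430), higher in 1 of 7. Ccng1 was 0.03 (SE 0.12), Bbc3 0.01 (SE 0.10) and Trp53 −0.02 (SE 0.08). Btg2 was −0.0028 (SE 0.09, adjusted p = 0.995) and Gadd45b 0.18 (SE 0.09, adjusted p = 0.283), so that the genes that stood apart by immediate early UMIs did not pass here. Gadd45b was higher in 5 of 7 embryos. With Bax it made 2 of 9 members at an unadjusted p under 0.05, beside 1812 of the 10287 genes.

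Across the 49 sums of 7 gates and 7 embryos, which share libraries, 7929 genes had a mean of at least 20 CPM, and the genes most like each member were named by Pearson's r of log2(CPM + 1). Cdkn1a, Gadd45a and Phlda3 had lower means and were left out. This is a description, and r is given without a test. For Trp53 they were Tyms (0.81), which makes thymidylate for DNA synthesis, Nap1l1 (0.80) and Cdkn2c (0.80). For Btg2 they were Egr1 (0.74), Ezr (0.74) and Gadd45g (0.74), an immediate early factor, a membrane-cytoskeleton linker and the third Gadd45 paralogue. Bbc3 was most like Ppp3r1 (0.83), Tuba1a (0.83) and Cd24a (0.83), and Gadd45b most like Id2 (0.72), Ube2b (0.71) and Sh3bgrl (0.70). Mdm2 was most like Atf4 (0.65), Bcl2l11 (0.64) and D930015E06Rik (0.63), Ccng1 most like Adam23 (0.77), Mipep (0.63) and Fbxo8 (0.61), and Bax most like Gm9843 (0.75), Rps14 (0.69) and Rps3 (0.67). No member was among the 3 most like another. Between members, r ran from −0.57 (Trp53 with Bbc3) to 0.55 (Trp53 with Btg2), and it was 0.02 between Btg2 and Gadd45b.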

How the data were processed

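Cells of 7 embryonic cortices were profiled on Seq-Well, 1 library per embryo. The deposited values are raw UMI counts per gene and bead barcode, which the authors made with STAR on mm10, per the submitters' processing notes. For the aligner version, annotation, barcode rule and UMI collapsing, nothing was stated in those notes. Tables held 7083225 to 11859209 UMIs each. Kept cells were gated by marker genes, the counts summed per embryo and gate, and genes tested with edgeR 4.0.16 (quasi-likelihood, TMM, filterByExpr, limma 3.58.1, R 4.3.3), with Benjamini-Hochberg adjustment over all genes tested and a threshold of 0.05. Both gates or both sides of a split come from the same embryo, so the embryo was a block there. Genotype was tested between 4 mutant and 3 control embryos. Sums over marker lists, and shares of cells, were compared by exact permutation over 35 splits. DESeq2 1.42.0, RLE scaling, other filters, thinning to 1000 UMIs and leaving out each embryo were alternatives. Python used numpy 2.4.6, scipy 1.17.1 and pandas 2.3.3.

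The members, gene lists and tests were chosen with earlier results of these data known. All members were named in each comparison, with listed genes past the threshold for genotype and at most 4 per list elsewhere. Tigar, Pidd1 and Tob2 of the lists had no row. Gene positions are GENCODE's on mm10, matched by symbol, and promoters are RefSeq's. On simulated counts the test recovered 82.57% of genes changed by 1 on the log2 scale for genotype in neurons (12436 genes), 91.26% for progenitors against neurons (11358) and 51.4% for the interaction (12264). The simulated spread followed a trend over expression level, without spread particular to a gene. For genotype in neurons 109 genes were changed by 1 and 91 by 2, where the real comparison called 5. These shares therefore need not hold for the members, and least for those with low counts. The labels give neither sex nor a batch, and embryos of 1 litter are the replicates.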

Additional observations from a re-analysis of the deposited data

Results flagged for a closer look

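Of 64 series of values examined for a single embryo standing far from the rest of its group, 9 had one. For genotype these were the values of the 4 mutants, and elsewhere the log2 ratios of all 7 embryos. The 3 controls were not examined as a group, so no control could be flagged for genotype. Such a gap is expected by chance in about 1 in 20 groups, and several of the series share cells.

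In mutant 11 Trp53 was low over all kept cells (54.7 CPM, against 65.7 to 66.6 in the other 3 mutants) and in neurons (48.0, against 60.5 to 62.5). The same embryo had 7.31 CPM of Cdkn1a in glutamatergic neurons, where the other mutants had 9.56 to 9.72. Its log2 ratio between neurons with and without immediate early UMIs was 0.93 for Ccng1, against −0.63 to −0.09 in the other 6 embryos. Its log2 ratio between neurons with and without other p53 target UMIs was −0.71 for Bax, against −0.29 to −0.07.

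Mutant 12 was high over all kept cells for Bbc3 (37.0 CPM, against 25.5 to 26.6 in the other mutants) and for Gadd45a (14.8, against 8.42 to 9.24). Bax stood at 114 CPM in the progenitors of mutant 17, against 79.5 to 83.4 in the other mutants. In control 14 the log2 ratio of Bax between progenitors and neurons was −0.54, against −0.19 to 0.04 in the other 6 embryos.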

How the results depend on the processing

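Trp53, Btg2, Gadd45a, Cdkn1a, Bbc3 and Gadd45b kept their direction and their call between progenitors and neurons under every alternative that tested them. Counts of genes called moved more. Without the filter on low counts, the genotype comparison called 165 genes in all kept cells, 152 in neurons, 157 in glutamatergic neurons and 16 in progenitors, in place of 3, 5, 5 and 1. DESeq2 called 21, 18, 30 and 2. In neurons without immediate early UMIs 70 genes were called (41 in glutamatergic ones), and 3 in neurons with at least 2 immediate early genes. With a mitochondrial share of at most 5% the counts were 5 in all kept cells and 0 in progenitors, and with 4 markers for a gate 2 in progenitors. The interaction of genotype with gate called 15 genes without the filter, 0 by DESeq2, 2 with 300 genes, 2 at 5% mitochondrial and 0 with 4 markers, in place of 4. The immediate early split called 187 by DESeq2 and 207 at 5% mitochondrial, in place of 313. The p53 target split called 210 by DESeq2, 332 at 5% mitochondrial and 22 after thinning, in place of 560. The interaction of genotype with the immediate early split, added after seeing the data, called 55 without the filter, 6 by DESeq2, 17 at 5% mitochondrial and 58 with 2 markers, in place of 35. The cause was not tested.

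Both sides of the splits come from the same embryo. Without the replicate block the immediate early split called 64 genes and the p53 target split 41; the progenitor comparison kept the calls of its 6 members. No paired analysis was possible for genotype, because each embryo has a single genotype. No label links any of mutants 10, 11, 12 and 17 to any of controls 14, 15 and 16.

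Signs that turned belonged to values that had not passed. In neurons they were Trp53 (0.036 at 5% mitochondrial, 0.022 with at least 2 immediate early genes) and, without immediate early UMIs, Mdm2 (−0.050), Bax (0.21) and Gadd45b (0.092). Elsewhere they were Trp53 in progenitors (0.00063 at 5% mitochondrial), Cdkn1a in the immediate early split (−0.15 with 2 markers), Gadd45b in the p53 target split (−0.041 after thinning) and Bbc3 in the added interaction (0.085 with 300 genes).

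Leaving out 1 embryo at a time moved the genotype counts between 3 and 26 genes in all kept cells (26 without mutant 17), 3 and 13 in neurons (13 without control 14 or mutant 17), 3 and 40 in glutamatergic neurons (40 without mutant 17) and 0 and 8 in progenitors (8 without control 16). The interaction of genotype with gate called 0 (without mutant 11) to 6, and the added one 18 to 110 (without control 16). The other counts stayed within 1.5 times. Members whose sign turned in these fits had not passed. They were Ccng1 between progenitors and neurons (−0.16 to 0.045), and in neurons Trp53 (−0.073 to 0.044), Ccng1 (−0.11 to 0.0022), Mdm2 (−0.041 to 0.24) and Bax (−0.38 to 0.094). Bbc3 in progenitors ran from −0.23 to 0.23, Cdkn1a in the immediate early split from −0.034 to 0.31, and Bbc3 in the added interaction from −0.61 to 0.21.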
